A study of Mus musculus with 60 samples.

Results

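The apelin system comprises 3 genes in the mouse: the secreted peptide ligands Apela (also called Elabela or Toddler; ENSMUSG00000079042) and Apln (apelin; ENSMUSG00000037010), and their common receptor Aplnr (ENSMUSG00000044338). All 3 were found by symbol in both expression tables, among 46517 genes for fibroblasts and 54838 for tissues. They were chosen by their CPM in liver tumours and normal livers, which earlier work on these data had shown to differ, so their values in that contrast, and the normal liver values in general, are given as a description and carry no test. Fold changes between other tissues and between fibroblast groups did not enter the choice and were tested.

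Aplnr is a G protein-coupled receptor that signals mainly through inhibitory G proteins and beta-arrestins. Apelin is cut by furin from a longer precursor, is inactivated by peptidases such as neprilysin (Mme), and is known in adult tissue for sprouting vessels, where tip cells make the ligand, and for its part in blood pressure and heart contraction. Apela is best known from the early embryo, where in zebrafish it guides cells during gastrulation and heart formation, and in adult rodents from the kidney.

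The ends of the ligands are shown because the last residues of apelin are needed to activate the receptor. In the GENCODE M21 transcripts, Apela-202 (chromosome 8, minus strand, 4 exons, 975 bases, 54 codons) and Apln-201 (chromosome X, minus strand, 3 exons, 3149 bases, 77 codons) end their coding sequences as follows, 5′ to 3′ and without the stop codon, with capitals for the longest stretch of codons that encode the same residues in both, 2 codons long.
Apela: attccacttcattctcgagtgCCCTTCcca
Apln: cggctctcccataagggccccatgCCTTTC
The codons in capitals encode proline and phenylalanine. They close the coding sequence of Apln and are followed by 1 more codon, also for proline, in Apela. Aplnr-201 (chromosome 2, plus strand) has 1 exon, 3699 bases and 377 codons.

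CD74-NRG1 is a fusion of the transmembrane protein Cd74 with neuregulin 1 (Nrg1), a ligand of Erbb3. The tissue libraries, 42 from 9 mice, all came from the Rosa26CD74-NRG1/Flp line, in which Flp recombinase has cut out an FRT-flanked stop cassette early in the embryo, so that nearly all tissues carry and can express the fusion. The tumours were 3 liver tumours of mice M00236, M00248 and M00249, 7 sarcoma libraries of 6 mice and 2 libraries of an intestine tumour of 1 mouse. The liver library of M00249 used as a tumour is one by its group label, while its title says only liver. The normal tissues were 8 livers, 6 muscles, 7 lungs, 6 spleens, 2 brains and 1 kidney. By their labels they carry the same transgene and Flp allele as the tumours, which for mouse M00246 the Nrg1 levels below go against. Mouse embryonic fibroblasts (MEFs) came from 9 embryos at passages 1 and 3, per the group label, with 3 embryos each labelled homozygous (FSF.CD74-NRG1 on both Rosa26 alleles), heterozygous (FSF.CD74-NRG1 and Flp) and negative (Flp on both alleles). For embryo 8 the labels disagree: the library used here as passage 1, after its group label and description, has a title that says passage 2. No ages are given in the labels.

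Levels are CPM, the count divided by the library's total count and scaled to a common total, from 3′ end sequencing that reads near the end of each transcript. Totals were 4837535 to 10089637 in tissues and 3107561 to 5000093 in MEFs, so a count of 0 allows up to 3 counts, or 0.297 to 0.62 CPM in a tissue library and 0.6 to 0.965 CPM in a MEF library, for counting error only. Kidney and liver libraries carried their markers: the kidney library had 123 CPM of Umod and 2458 CPM of Slc34a1, and the 5 hepatocyte markers summed to 13833, 40829 and 87762 CPM in the liver tumours against 23971 to 56954 CPM in normal livers. The libraries labelled intestine tumour did not: they had 0.118 and 0.133 CPM of the intestinal epithelium markers. The lymphocyte markers Cd79a and Ms4a1 were at 194 to 304 CPM and 505 to 779 CPM in them, beside 95.2 to 299.8 CPM and 131 to 477 CPM in the spleens. Mouse M00246 goes against its transgene label, with 0.675 to 5.37 CPM of Nrg1 in its 4 tissues. In MEFs, embryo 1, labelled negative, had 132 and 147 CPM of Nrg1, and embryo 3, labelled homozygous, had 0.644 and 1.28 CPM. In bulk tissue, fewer cells of a type and less RNA per cell cannot be told apart.

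Apela was close to absent from normal liver and present in every liver tumour. The liver tumours had 10.6 CPM (M00236, 88 counts), 299.8 CPM (M00248, 3025 counts) and 101 CPM (M00249, 801 counts), against 0 to 0.17 CPM in the 8 normal livers, with a median of 0.117 CPM. All 3 tumours lay above all normal livers, and they differed widely among themselves. On average the tumours had 137 ± 148 CPM (SD, n = 3) and the normal livers 0.0894 ± 0.077 CPM (SD, n = 8). The fitted log2 fold change was 10.35, the highest of the 13256 genes in that fit, and it rests on 6 counts over all normal livers. It was 9.0 without tumour M00248. Pooled over libraries, the ratio was 1597, with a 95% exact counting interval of 733 to 4353 that leaves out the spread between mice.

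The 3 tumours stood in the same order by Apela and by hepatocyte markers, which were 13833 CPM in M00236, 87762 CPM in M00248 and 40829 CPM in M00249; whether the one bears on the other was not tested. The oncofetal gene Afp, made by fetal liver and yolk sac, ran from 11.4 to 364 CPM over the tumours, with a median of 17.9 CPM. Mouse M00236 and mouse M00248 each gave a normal liver too, and those livers had no more than 0.17 CPM of Apela.

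**Figure D1:**
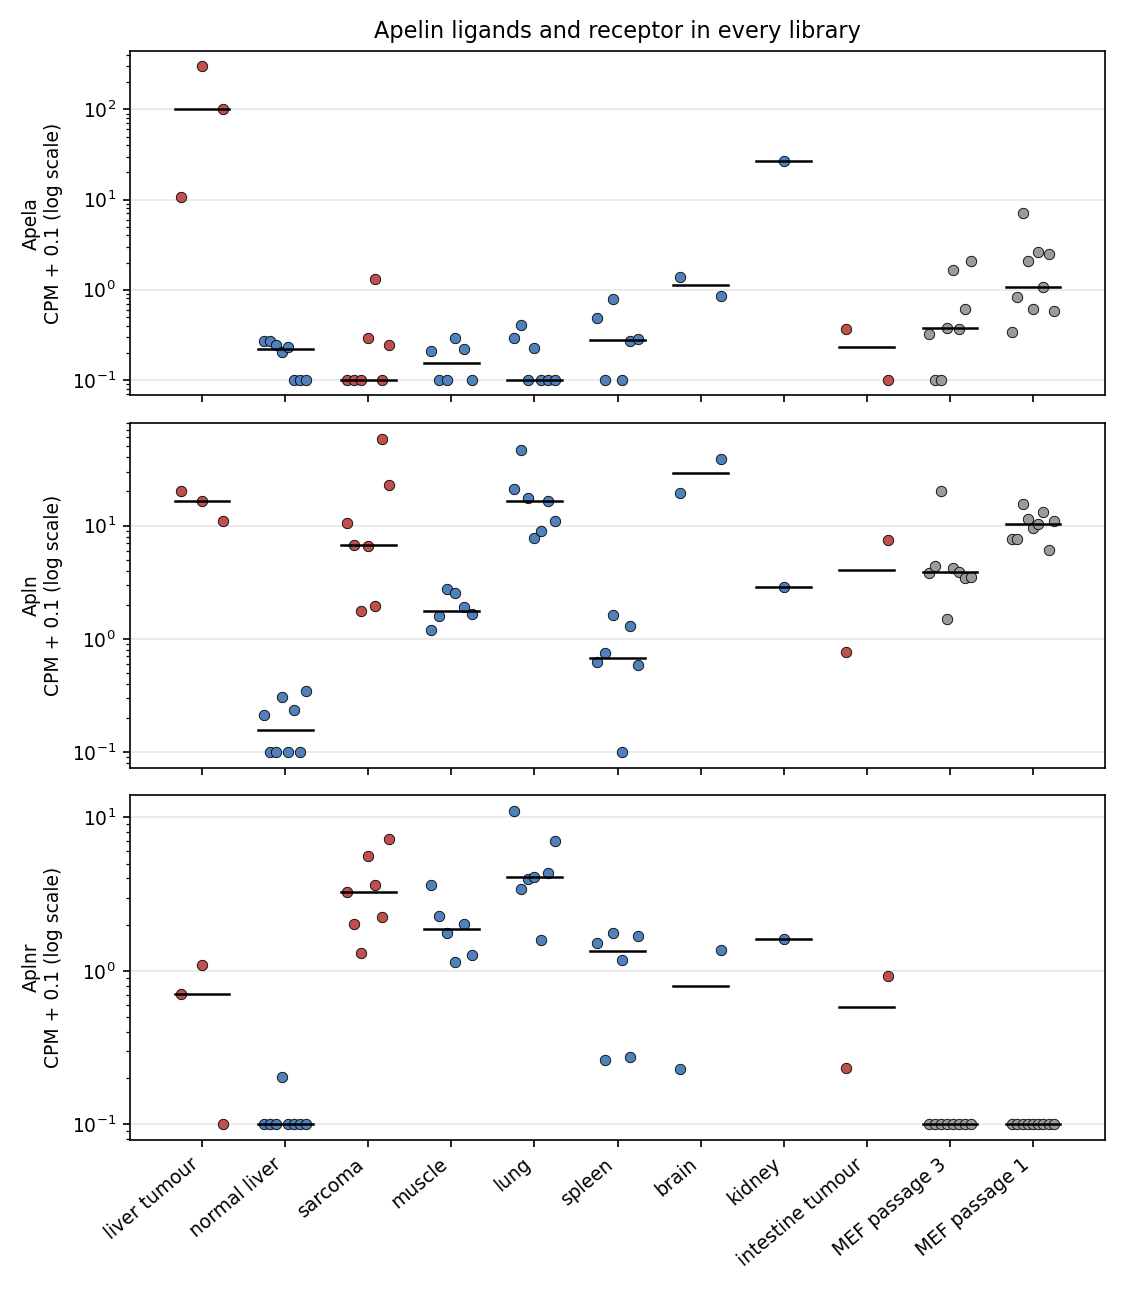
Each point is 1 library, the vertical axes give CPM plus 0.1 on a log scale for Apela, Apln and Aplnr, and black lines are medians. Tumours are red, normal tissues blue and fibroblasts (MEF) grey. Apela stands at 10.6 CPM or more only in the 3 liver tumours and the kidney, Apln is spread over many groups, and Aplnr lies at 0 in all 17 MEF libraries shown.

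The kidney was the other tissue with Apela. Its only library, from mouse M00249, had 26.6 CPM (193 counts), between the liver tumours' lowest and middle values, and with 1 library it has no replicate. Liver tumours held 94.1% of all Apela counts in the tissue table, the kidney 4.64% and the remaining 38 libraries 1.22% together. Tumour M00248 alone held 72.8%, and without it the shares were 78.5% for the other 2 tumours, 17.0% for the kidney and 4.49% for the rest. Kidney markers were near 0 in the liver tumours: Umod, a tubule gene, reached 0.099 CPM and Slc34a1, a phosphate transporter of the proximal tubule, reached 0.694 CPM, while the kidney had 123 CPM of Umod and 2458 CPM of Slc34a1.

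Elsewhere Apela was low, at 10 counts or fewer in all libraries but 1. The brains had 1.28 and 0.752 CPM, the sarcoma libraries 0 to 1.23 CPM, the intestine tumour 0.267 and 0 CPM, the spleens 0 to 0.688 CPM, the lungs 0 to 0.303 CPM and the muscles 0 to 0.193 CPM. Neighbouring groups in this order overlapped throughout, apart from the single kidney library. The MEFs had 0 to 2.00 CPM at passage 3 and 0.24 to 6.93 CPM at passage 1. The exception, with 27 counts in embryo 10 at passage 1, was a culture labelled homozygous. Apela failed the filter on low counts in every fit but that of the livers. Its fractional counts in 8 libraries matched fractions in Gm45886, a gene model that overlaps it on the same strand and had at most 1.51 counts in a library, while the Apela counts of the liver tumours were whole.

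Apln, unlike Apela, was found in many tissues, and liver tumours joined those tissues while normal liver did not. The liver tumours had 20.2, 16.3 and 10.9 CPM (M00236, M00248 and M00249), against 0 to 0.248 CPM in normal livers, where 4 of 8 libraries had no count. The groups did not overlap, and the tumours varied little: 15.8 ± 4.68 CPM (SD, n = 3), against 0.0877 ± 0.102 CPM (SD, n = 8) in normal livers. The fitted log2 fold change of 7.04 ranked 16 among the 13256 genes, and rests on 6 counts over all normal livers. The tumour with the lowest Apela, M00236, had the highest Apln.

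Aplnr was low in liver, tumour or not. The tumours had 0.601, 0.991 and 0 CPM, 15 counts in all, and the normal livers had 1 count in all 8 libraries together. The pooled ratio was 36.7, with a counting interval of 5.65 to 1546 that leaves out the spread between mice. This is a description and no test, and 10 of the 15 counts came from M00248. The 0 counts of tumour M00249 allow up to 0.38 CPM and those of normal liver M00247 up to 0.433 CPM. This tumour therefore cannot be told apart from a normal liver with 0 counts.

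Of the 14 genes listed for apelin processing and signalling (furin, peptidases, G proteins, arrestins and receptor kinases), 13 could be tested in liver, where 10.6% of all genes passed an adjusted p of 0.05 in edgeR's quasi-likelihood test. Gnai1, an inhibitory G protein subunit, was higher in the tumours (log2 fold change 2.80, SE 0.82, adjusted p = 0.0457). Its levels were 2.66 to 64.0 CPM in tumours against 1.01 to 5.46 CPM in normal livers, and without tumour M00236 the log2 fold change was -0.35. The call was also lost when any 1 normal liver was left out (2.60 to 2.96, adjusted p = 0.054 to 0.088). Klkb1, plasma kallikrein, was lower (-1.02, SE 0.30, adjusted p = 0.0474), a call lost without tumour M00236, without M00248 and without most single normal livers (-1.07 to -0.80, adjusted p = 0.063 to 0.16). Furin had 79.2 ± 26.8 CPM in tumours and 102.8 ± 13.9 CPM in normal livers (adjusted p = 0.118), and the receptor kinase Grk5 had 4.81 ± 1.92 CPM against 2.11 ± 1.06 CPM (adjusted p = 0.18; SD, n = 3 and 8, quasi-likelihood test). The list's median log2 fold change was 0.24, beside 0.09 over all genes. In the renin-angiotensin list, which holds the peptide system that apelin opposes, 3 of 7 genes could be tested, and Ace, angiotensin-converting enzyme, was higher (2.05, SE 0.49, adjusted p = 0.0189), but not without tumour M00248 (1.11, adjusted p = 0.25).

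Apelin is a tip cell ligand, and most tested genes of the list of endothelial tip cell markers were higher in the liver tumours. Of 13 listed, 11 could be tested, and 7 passed the test as higher and 0 as lower, where 10.6% of all genes passed. The list was written with earlier results of these data known. A listed gene near 0 in normal livers entered the fit only through the tumours and could only come out higher. Kcne3 was such a gene, with 0 to 0.811 CPM in normal livers and 2.38 to 5.53 CPM in tumours. The median log2 fold change was 2.35 beside 0.09 over all genes. Angpt2, an antagonist of the receptor Tek, had 13.6 ± 4.24 CPM in tumours and 0.94 ± 0.374 CPM in normal livers (log2 fold change 3.66, SE 0.33, adjusted p = 5.62e-05). Esm1, a proteoglycan secreted at vessel tips, had 32.5, 42.4 and 49.0 CPM in tumours and 0.306 to 9.96 CPM in normal livers (3.54, SE 0.72, adjusted p = 0.00872). Cd34 (2.91, adjusted p = 0.0026) and the adhesion molecule Mcam (2.16, adjusted p = 0.0117) completed the 4 with the smallest adjusted p in the quasi-likelihood test. Summed over the list, the tumours had 150 to 232 CPM and the normal livers 43.2 to 92.4 CPM, without overlap. The list is not expressed in endothelium alone: its sum was 511 to 984 CPM in sarcomas and 540 to 1070 CPM in cultured MEFs. The part of tip cells in the tumours' Apln levels was not tested.

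Most genes expressed by endothelium in general were not called. Of 16 pan-endothelial genes, 14 could be tested and 2 were higher, a share close to the 10.6% of all genes called in this fit. The median log2 fold change of this list was 0.42 beside 0.09 over all genes. This list is not expressed in endothelium alone either: Flt1 averaged 190 CPM at passage 3 and 200 CPM at passage 1 in cultured MEFs. The 2 genes called higher were Emcn (1.86, adjusted p = 0.00222) and Esam (1.29, adjusted p = 0.0193), both surface proteins of endothelial cells. Esam missed the threshold without tumour M00236 (0.46, adjusted p = 0.13). Pecam1 had 29.8 ± 3.01 CPM in tumours and 16.6 ± 5.82 CPM in normal livers (adjusted p = 0.0991), and Ptprb, an endothelial phosphatase, had 52.9 ± 41.9 CPM against 84.2 ± 11.4 CPM (adjusted p = 0.117). The summed pan-endothelial level overlapped, at 237.7 to 411 CPM in tumours and 222 to 325 CPM in normal livers. Among 12 genes of the liver's own sinusoidal endothelium, 5 were lower and 1 was higher. The lowest included Dnase1l3 (-1.50, adjusted p = 0.00197), the scavenger receptor Stab2 (-1.53, adjusted p = 0.00715) and the ligand Wnt2 (-2.96, adjusted p = 0.0139), while Flt4, the receptor of the lymphatic growth factors, was higher (1.82, adjusted p = 0.0161), though not without tumour M00248 (1.18, adjusted p = 0.13). In tumour M00249 the sinusoidal sum was 325 CPM, above all normal livers, and in the other 2 tumours it was 112 and 159 CPM, below all of them. Differences between lists were not tested.

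**Figure D2:**
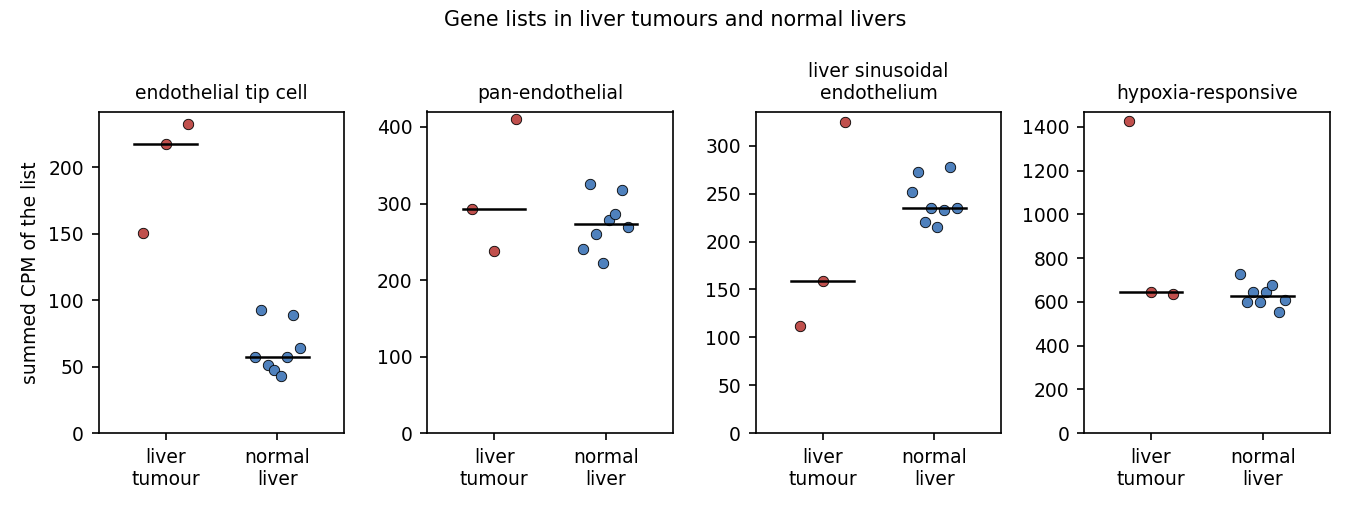
Summed CPM of 4 gene lists in each liver tumour (left, red, n = 3) and each normal liver (right, blue, n = 8), with lines at the medians and axes from 0. The tip cell sums do not overlap (150 to 232 CPM against 43.2 to 92.4 CPM), whereas the pan-endothelial sums do.

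Apln is a known target of hypoxia-inducible factors. Of the 10 hypoxia-responsive genes that could be tested, 4 were higher in the tumours and 0 lower, beside 10.6% of all genes called. These were Ankrd37 (log2 fold change 4.37, adjusted p = 0.000578), the stress gene Ndrg1 (2.82, adjusted p = 0.000974), the glucose transporter Slc2a1 (1.23, adjusted p = 0.018) and the oxygen sensor Egln3 (1.14, adjusted p = 0.0322). Ankrd37, at 0.132 to 0.801 CPM in normal livers, entered the fit only through the tumours and could only come out higher. Without tumour M00236 the count was 3 higher and 2 lower, and without M00248 it was 2 higher and 0 lower. Slc2a1 missed the threshold without M00248 (0.91, adjusted p = 0.12), and Egln3 without either of these tumours (0.75 and 1.04, adjusted p = 0.16 and 0.11) and without some single normal livers. Vegfa, the main angiogenic factor, had 47.9 ± 2.86 CPM in tumours and 38.5 ± 7.08 CPM in normal livers (adjusted p = 0.66). The summed level was 1427 CPM in M00236 and 638 and 646 CPM in the other tumours, beside 553 to 730 CPM in normal livers. The part of hypoxia in the Apln levels was not tested. Of 14 genes of pluripotency and early endoderm, where Apela is known from the embryo, 5 could be tested, and Afp (6.84, adjusted p = 0.00041) and the fetal liver proteoglycan Gpc3 (4.95, adjusted p = 0.00715) were higher. Without tumour M00248 the log2 fold change was 3.66 for Afp, still past the threshold, and 0.42 for Gpc3 (adjusted p = 0.8). DESeq2 gave no p for either gene.

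Other cells' markers moved with the same libraries. Fibroblast markers (Col1a1, Col1a2, Pdgfra) summed to 121 to 246.3 CPM in tumours and 21.5 to 83.0 CPM in normal livers. Intestinal epithelium markers (Vil1, Krt20, Cdx2) summed to 1.56 to 65.7 CPM against 0 to 0.45 CPM. Bile duct markers (Krt19, Krt7, Epcam, Sox9) summed to 132 CPM in M00248 and in M00249 and to 7.94 CPM in M00236, beside 9.58 to 31.6 CPM in normal livers. Their part in the ligand levels was not tested. When the mouse entered the liver fit as a block, 0 of 13256 genes passed, and none of the list calls above held: only 2 mice gave both a tumour and a normal liver, which leaves 1 degree of freedom. Apela and Apln kept log2 fold changes of 10.22 and 6.98 in that fit.

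Among normal tissues, lung and brain had the most Apln. The brains had 19.5 and 38.4 CPM and the lungs 7.66 to 46.6 CPM with a median of 16.2 CPM, beside 2.76 CPM in the kidney, 1.10 to 2.65 CPM in muscle, 0 to 1.51 CPM in spleen and 0 to 0.248 CPM in liver. The lung lay above muscle and spleen without overlap. On TMM-scaled values the lung exceeded muscle by 2.41 (log2, SE 0.53, adjusted p = 0.000245) and spleen by 4.29 (SE 0.60, adjusted p = 3.51e-07), and muscle exceeded spleen by 1.88 (SE 0.61, adjusted p = 0.00798). Of all genes, 54.6%, 51.8% and 59.7% passed in these contrasts, so a gene past the threshold is common here. Muscle and spleen overlapped in CPM, and with no scaling beyond the library total their difference was 1.32 (adjusted p = 0.06).

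The lung of mouse M00238 was highest, at 46.6 CPM, beyond the other lungs' 7.66 to 20.9 CPM. Its sum over the endothelial tip cell list was also the highest of the 7 lungs, 867 CPM against 450 to 692 CPM, as was its hypoxia-responsive sum, 1749 CPM against 566 to 708 CPM. It had 8.93 CPM of Nrg1, against 41.3 to 111 CPM in the lungs of the other mice apart from M00246. Hepatocyte markers summed to 382 CPM in this lung, against 66.2 to 87.1 CPM in the others. Skeletal muscle markers summed to 60.2 CPM, against 17.1 to 34.9 CPM. The part of these in its Apln level was not tested. Without this library the lung exceeded muscle in Apln by 2.02 (adjusted p = 0.0011).

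Aplnr was highest in lung too. The lungs had 1.49 to 10.9 CPM (median 3.96), the muscles 1.04 to 3.53 CPM (median 1.79), the kidney 1.52 CPM, the spleens 0.162 to 1.65 CPM (median 1.25) and the brains 0.128 and 1.27 CPM. Each group overlapped with its neighbours in this order. The lung exceeded spleen by 1.88 (log2, SE 0.51, adjusted p = 0.00238). It was not shown to differ from muscle, with a difference of 0.53 and a 95% interval of -0.44 to 1.51 (adjusted p = 0.358); with no scaling beyond the library total this was 1.36 (adjusted p = 0.013). Muscle exceeded spleen by 1.35 (SE 0.52, adjusted p = 0.0268), a call that was lost with the mouse as a block (1.08, adjusted p = 0.16).

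Scaling matters for these contrasts. The mean log2 TMM factors differed by 0.86 between lung and muscle, 0.96 between sarcoma and muscle, 0.47 between sarcoma and spleen, 0.35 between lung and spleen, 0.13 between sarcoma and lung, -0.51 between muscle and spleen and 0.18 between liver tumours and normal livers. The fold changes are relative to these shifts, whereas the CPM values are not.

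Sarcomas had more Apln than muscle, the normal tissue whose libraries were set beside them. The 7 sarcoma libraries had 10.3 CPM (M00235), 6.61 CPM (M00236), 1.66 CPM (M00237), 6.54 CPM (M00238), 1.86 and 58.4 CPM (libraries T1 and T2 of M00245) and 22.7 CPM (M00248), against 1.10 to 2.65 CPM in 6 muscles. The spread was wide, and 2 of the 7 libraries lay within the range of muscle. With both M00245 libraries summed, sarcomas averaged 13.5 ± 12.0 CPM and muscles 1.84 ± 0.599 CPM (SD, n = 6 each), with a log2 fold change of 1.86 (SE 0.55, adjusted p = 0.00895, 64.9% of genes called). With only library T1 of M00245 it was 1.21 (adjusted p = 0.074).

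The libraries of mouse M00245 stood near opposite ends of the sarcoma range. T2, with 58.4 CPM of Apln, had 16.7 CPM of skeletal muscle markers (Ckm, Acta1, Myh4, Tnnt3), while T1, with 1.86 CPM, had 1069 CPM. T2 also had 820 CPM over the hypoxia-responsive list against 437 CPM in T1, and 101 against 41.8 CPM of Nrg1. Across all 7 libraries, muscle marker sums ran from 16.7 to 2420 CPM, and their part in the Apln levels was not tested.

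Set beside spleen, sarcomas had more Apln, by 3.72 (log2, SE 0.60, adjusted p = 3.72e-06; 52.3% of genes called). Sarcoma and lung were not shown to differ in Apln (-0.58, 95% interval -1.56 to 0.41, adjusted p = 0.356; 44.0% of genes called). With only library T1 of M00245 the lung was higher than sarcoma (-1.23, adjusted p = 0.047). The ranges of Apln in liver tumours and sarcomas overlapped.

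Aplnr in sarcomas was 3.18, 1.91, 1.2, 5.53, 3.51, 2.15 and 7.10 CPM, with the libraries in the same order as above, against 1.04 to 3.53 CPM in muscle. The log2 difference from muscle was -0.05 (95% interval -0.94 to 0.85, adjusted p = 0.932) and changed sign to 0.91 (adjusted p = 0.071) with no scaling beyond the library total, so no direction is given. Against lung it was -0.60 (95% interval -1.56 to 0.36, adjusted p = 0.325). Against spleen it was 1.28 (SE 0.52, adjusted p = 0.0372). That call was lost with the mouse as a block (1.12, adjusted p = 0.18), without sarcoma M00238 (1.13, adjusted p = 0.085) and without sarcoma M00248 (1.01, adjusted p = 0.11).

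**Figure D3:**
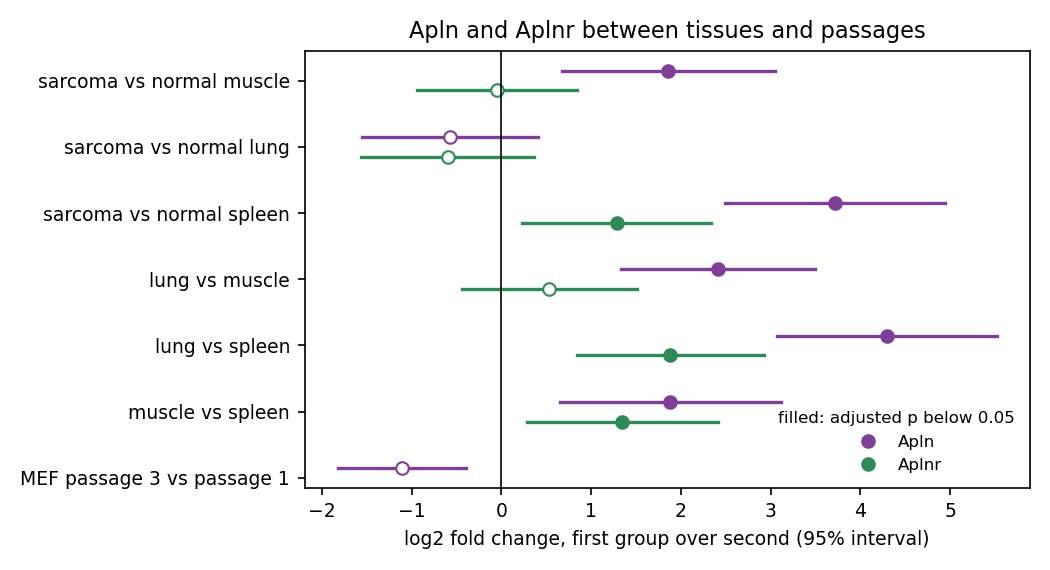
Log2 fold changes of Apln (purple) and Aplnr (green), first group over second, with 95% intervals from edgeR's quasi-likelihood fit; filled points passed an adjusted p of 0.05. Apln exceeds 0 in the 5 tissue contrasts other than sarcoma against lung, and Aplnr passes only in the 3 contrasts with spleen.

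Between sarcoma and muscle, where 64.9% of all genes passed, list counts are read against that share. Of 14 apelin signalling genes tested, 8 were higher in sarcoma and 4 lower, with a median of 0.81 beside 0.06 over all genes. The G protein subunit Gnaq (1.65, adjusted p = 4.46e-07) and the arrestin Arrb2 (1.97, adjusted p = 4.49e-07) were higher. The peptidase Mme, which degrades apelin, was lower (-2.41, adjusted p = 2.71e-06), at 4.87 CPM in sarcoma against 13.0 CPM in muscle. Tip cell genes split into 6 higher, among them Mcam (4.03) and Angpt2 (3.39), and 1 lower of 12 tested. Pan-endothelial genes split into 1 higher and 10 lower of 14 tested, among them Flt1 (-2.50) and Kdr (-1.74), the receptors of Vegfa; with no scaling beyond the library total 3 were lower. Of 11 hypoxia-responsive genes, 7 were lower, among them Pdk1 (-1.71) and Bnip3 (-2.40), and 0 higher; with no scaling 6 were lower and 1 higher. The hypoxia-responsive and tip cell counts are no larger a share than among all genes.

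The intestine tumour had 0.667 and 7.29 CPM of Apln and 0.133 and 0.824 CPM of Aplnr in its 2 libraries, T1 and T2, and no normal intestine was set beside it.

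Fibroblasts had Apln, and the receptor was not detected in them. Aplnr had 0 counts in all 17 MEF libraries used, which allows up to 0.965 CPM in the shallowest. Pooled over the 17 libraries, it allows up to 0.0448 CPM, for counting error only. Apln had 1.40 to 4.33 CPM in 7 passage 3 libraries and 20.1 CPM in that of embryo 10, against 6.02 to 15.4 CPM at passage 1. It was lower at passage 3 in 7 of 8 embryos with both passages, and higher in embryo 10. The log2 fold change was -1.11 (SE 0.34, 95% interval -1.83 to -0.40), which missed the threshold over 12357 genes (adjusted p = 0.115; 1.06% of genes called). It passed without embryo 10 (-1.44, adjusted p = 0.0048) and in DESeq2 (-1.12, adjusted p = 0.042).

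Over the same passages, 4 of 10 hypoxia-responsive genes were higher at passage 3, beside 1.06% of all genes called. They were Vegfa (0.45, adjusted p = 0.0102), Bnip3 (0.86, adjusted p = 0.0394), Ldha (0.25, adjusted p = 0.0394) and Pdk1 (0.74, adjusted p = 0.0482), genes of angiogenesis and of anaerobic metabolism. None of the 4 passed when embryo 1 was left out, when 0 genes were called in all. The tip cell gene Esm1 was lower (-1.79, adjusted p = 0.0215), and 0 of 12 apelin signalling genes passed.

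**Figure D4:**
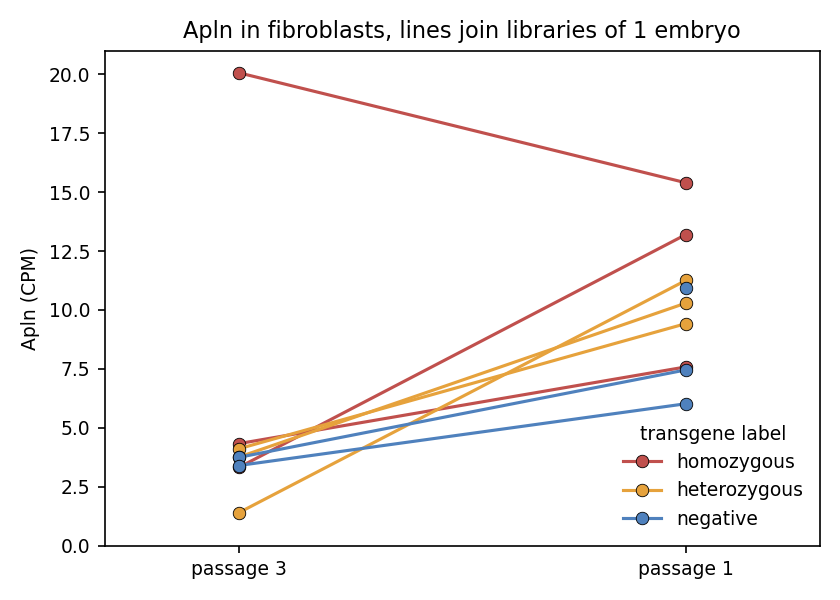
Apln in CPM at passage 3 (left) and passage 1 (right), with lines joining the libraries of 1 embryo and colours for the labelled genotype. Of 8 embryos 7 are lower at passage 3, and embryo 10 (homozygous) stands at 20.1 CPM.

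The labelled genotypes were not shown to differ in Apln. In homozygous MEFs it was 9.24 ± 9.39 CPM at passage 3 and 12.1 ± 4.03 CPM at passage 1 (SD, n = 3 each). In heterozygous MEFs it was 3.09 ± 1.48 CPM at passage 3 and 10.3 ± 0.916 CPM at passage 1 (SD, n = 3 each), and in negative MEFs 3.57 ± 0.244 CPM at passage 3 (SD, n = 2) and 8.13 ± 2.52 CPM at passage 1 (SD, n = 3). Homozygous against negative gave log2 fold changes of 1.35 (95% interval -0.01 to 2.71) at passage 3 and 0.58 (-0.52 to 1.68) at passage 1. Heterozygous against negative gave -0.20 (-1.67 to 1.27) at passage 3 and 0.37 (-0.74 to 1.48) at passage 1. Adjusted p-values in the quasi-likelihood test were 0.714 for homozygous at passage 1 and 1.0 in the other 3 contrasts. In all 4 contrasts edgeR called 0 genes, 0.0% of those tested, although 302 to 1258 genes had an unadjusted p below 0.05, and DESeq2 called 1 gene for homozygous against negative at passage 1 and 0 in the other 3. Nrg1 goes against the labels of embryos 1 and 3, and without them the homozygous contrasts were 1.77 at passage 3 and 0.43 at passage 1. Without embryo 10 the homozygous contrast at passage 3 was 0.10.

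Across the 42 tissue libraries, the profile of Apela on the log2(CPM + 1) scale was most like those of Anxa13 (Pearson r = 0.95), an annexin of epithelia, the trypsin inhibitor Spink1 (0.88), Erich4 (0.86), Afp (0.83) and Akr1c18 (0.83). The profile of Apela is set by the liver tumours and the kidney, which held nearly all its counts. That the liver tumours exceeded normal livers in these genes therefore follows from their choice by likeness. On average Anxa13 was at 45.8 against 0.23 CPM and Spink1 at 265 against 0.802 CPM. The kidney had 5.37 CPM of Anxa13, 900.2 CPM of Spink1 and 62.7 CPM of Erich4, but 1.93 CPM of Afp and 0.276 CPM of Akr1c18. For Apln the closest of 13950 genes were Npdc1 (0.87), Scd2 (0.85), Fkbp1a (0.85), Dbndd2 (0.83) and Sgsm3 (0.82), which like Apln were higher in brain and lung than in normal liver. For Aplnr they were Gask1b (0.87), Cavin1 (0.86), a caveola component, Gpx8 (0.85), Pdzd2 (0.84) and Wdsub1 (0.84), which were lower in normal liver than in lung and sarcoma. The libraries share mice and tissues, so these correlations describe the tissue pattern and have no p. The tissue levels given for Apln and Aplnr neighbours also follow from the choice by likeness.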

How the data were processed

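The libraries were made with a 3′ end kit from RNA of frozen tissue sections or MEFs, per the labels' protocols. The authors' tables hold expected counts for each gene, of which 6.57% (MEFs) and 8.35% (tissues) are not whole. Which aligner, counter, strand setting and build they used is not given in the sources used here. No coordinates are therefore printed, and GENCODE M21 transcripts served for sequences and exon numbers. Because tests had been planned for raw counts, the values were rounded, which moved totals by 0.00074% and 0.00054%. CPM was recomputed. Among MEF columns, 1 matched no label and was not used, leaving 17 of 18 libraries. Both M00245 sarcoma libraries were summed in tests and in group means of the 3 genes; list gene means use all 7.

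Tests were two-sided edgeR 4.0.16 quasi-likelihood F tests (R 4.3.3) with TMM scaling and filterByExpr (minimum count 10), adjusted by Benjamini and Hochberg's method across every gene in the fit, with a threshold of 0.05. Separate fits held liver tumours and normal livers; sarcomas and muscles; sarcomas, muscles, lungs, livers and spleens; and MEFs in 6 groups. The procedure was tested on simulated data. Contrasts with normal liver got no test of the 3 genes. Replicate libraries differed beyond sampling noise (chi-square per degree of freedom of at least 2.85).

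The 3 genes and the lists were chosen with earlier results of these data known. Named genes are the 3, up to 4 list genes with the smallest adjusted p, and the 5 closest to each of the 3 by correlation (among genes with at least 5 CPM in 3 libraries); further list members, named to show values that missed the threshold, were chosen after their values were seen. Libraries of 1 animal are paired by origin: deviations from group means correlated at a median of 0.045 over 48 tissue pairs and 0.128 over 8 MEF pairs. Alternatives were DESeq2 1.42.0, other scalings and filters, the animal as a block, and leaving out libraries or animals. Leaving out mouse M00246 or the lung of M00238, no scaling, and T1 or T2 alone against lung and spleen were added after the data were seen.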

Additional observations from a re-analysis of the deposited data

Results flagged for a closer look

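A sample far from the rest of its group was found for 3 of 15 combinations of gene and group with 4 to 10 samples. No chance rate is given for this rule, since many of the values are near 0 and 1 count among zeros is always marked. Apln in the lung of mouse M00238 was 46.6 CPM (308 counts), and the gap to the next lung took 0.659 of the range of 7 lungs. Apela in the summed sarcomas of mouse M00245 was 0.546 CPM (5.94 counts), a gap of 0.657 of the range of 6 mice. Aplnr in the normal liver of mouse M00238 was 0.102 CPM, which is 1 count where the other 7 livers had none.

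Signal in groups that entered no test was seen in kidney and brain. Apela in the kidney of mouse M00249 was 26.6 CPM (193 counts). Apln in the brains of mice M00237 and M00238 was 19.5 CPM and 38.4 CPM (152 and 303 counts).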

How the results depend on the processing

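Over the alternatives, 251 values of the ligands and receptor were kept, 10 lost the call, 5 gained it and 7 turned. Values counted as kept had the same direction and side of the threshold. In the liver contrast, which carries no test of these genes, they stayed within a pooled within-group SD on the log2 scale. The Aplnr difference between sarcoma and muscle turned to 0.01 with library T1 alone and 0.91 with no scaling, and ranged from -0.32 to 0.15 when single libraries were left out. Apln in heterozygous against negative MEFs at passage 3 ranged from -0.47 to 0.12 when single embryos were left out. Aplnr calls were lost with no filter (sarcoma against spleen 1.33, muscle against spleen 1.34), with the replicate block (1.12 and 1.08), with only the 2 groups in the fit (sarcoma against spleen 1.21) and with no scaling (muscle against spleen 0.89). Leaving out single sarcomas gave 1.01 to 1.47 for sarcoma against spleen. Aplnr in lung against muscle passed with no scaling (1.36), where Apln in muscle against spleen did not (1.32). With T1 alone, Apln was 1.21 (sarcoma against muscle) and -1.23 (against lung). Apln at passage 3 against 1 was -1.12 in DESeq2 and -1.11 with no filter, both past the threshold, and -1.44 to -0.95 over left-out embryos. The replicate block changed no other call of Apln or Aplnr.

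Counts of calls moved by over 1.5 times in liver and MEFs. In liver, 1407 genes became 0 with the replicate block, 0 with only the normal livers of mice with a tumour, and 860 to 1919 without single libraries. For MEF passage, 131 became 388 in DESeq2, 424 with no filter, 0 without embryos 1 and 3, and 0 to 549 without single embryos. For homozygous against negative at passage 1, 0 became 1 in DESeq2, 41 with no filter, 2 without embryos 1 and 3, and 0 to 704 without single embryos. Without embryos 1 and 3 the count was 1 for homozygous and 1 for heterozygous at passage 3 and 2 for heterozygous at passage 1, which had 0 to 1 without single embryos. Among list genes, Gnai1 in liver ranged from -0.35 to 3.33 without single libraries. Agt in liver ranged from -0.43 to 0.05 without single libraries and turned to 0.06 with the block and 0.22 with matched livers; in sarcoma it was 0.16 with the block, 0.9 with no scaling and -0.46 to 0.18 without single libraries, and Ace was 0.62 with no scaling. The causes were not tested. Depth limits Aplnr in liver and Apela outside liver tumours and kidney, where differences of a few counts were not detectable.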
